A study of Mus musculus with 6 samples.

Results

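Pancreatic acinar cells, the cells that make and secrete digestive enzymes, were examined among single cells from KPC mouse pancreatic tumours. A cell barcode was counted as an acinar cell when it passed the cell filters (500 or more UMIs from 250 or more genes, with no more than 20% of UMIs mitochondrial) and when 10 enzyme genes (Cpa1, Cpb1, Cela1, Cela2a, Cela3b, Ctrb1, Prss2, Try4, Try5 and Pnlip) held at least 5% of its UMIs. A UMI is a molecular tag that counts 1 captured RNA molecule. Barcodes with any UMI of the leukocyte gene Ptprc or the endothelial gene Pecam1, or with 5% or more of UMIs from islet hormone genes, were not counted. The rule found 196 acinar cells among 39928 filtered barcodes (44819 before the filters). The treated group was 3 mice given trametinib (1 mg/kg) and hydroxychloroquine (40 mg/kg) by mouth, and the vehicle group was 3 mice given corn oil and water. Trametinib inhibits the kinase MEK, and hydroxychloroquine raises lysosomal pH. All 6 mice carried KrasLSL.G12D/+, p53LSL.R172H/+ and the Pdx1-Cretg/+ transgene, and entered treatment with a tumour of 4 to 7 mm. Each tumour was taken 24 h after treatment and gave 1 10x Genomics library. Pdx1 is active throughout the embryonic pancreas, so Cre can act in acinar cells as well as in the cells that form the tumour. No mutation was read in these cells, and the mice's ages were not given in the sources used here.

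Acinar cells store inactive enzyme precursors (zymogens) in granules and release them when cholecystokinin or acetylcholine reaches the cell. Their identity rests on the factor PTF1, which holds Ptf1a and Rbpjl and binds a CACCTG E-box paired with a TTTCCC box, together with Nr5a2, Bhlha15 (Mist1) and the unfolded protein response factor Xbp1. In injured pancreas, acinar cells are known to turn on Reg genes, Clu and ductal keratins while their enzymes decline.

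The 250 bases upstream of the start of 3 enzyme genes are shown because enzyme RNA defined these cells and PTF1 acts on such promoters. They come from RefSeq on build GRCm38.p6 and read 5′ to 3′ on the gene's strand. Capitals mark CACCTG or its reverse complement CAGGTG, and TTTCCC or its reverse complement GGGAAA. Prss2 (an anionic trypsinogen, chr6:41521526-41521775, + strand) and Cela2a (an elastase, chr4:141826006-141826255, − strand) held both motifs. Ctrb1 (chymotrypsinogen B, chr8:111691011-111691260, − strand) held only TTTCCC.
Prss2: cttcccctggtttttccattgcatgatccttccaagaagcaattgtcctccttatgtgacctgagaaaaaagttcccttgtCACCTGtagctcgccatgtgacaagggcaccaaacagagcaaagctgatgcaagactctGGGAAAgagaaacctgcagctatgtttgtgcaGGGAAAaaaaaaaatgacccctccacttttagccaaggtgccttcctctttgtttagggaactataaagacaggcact
Cela2a: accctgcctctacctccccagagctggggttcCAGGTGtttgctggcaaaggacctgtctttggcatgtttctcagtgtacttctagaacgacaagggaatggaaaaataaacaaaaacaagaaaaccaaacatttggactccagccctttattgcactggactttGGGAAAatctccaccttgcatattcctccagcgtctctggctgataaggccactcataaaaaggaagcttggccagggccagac
Ctrb1: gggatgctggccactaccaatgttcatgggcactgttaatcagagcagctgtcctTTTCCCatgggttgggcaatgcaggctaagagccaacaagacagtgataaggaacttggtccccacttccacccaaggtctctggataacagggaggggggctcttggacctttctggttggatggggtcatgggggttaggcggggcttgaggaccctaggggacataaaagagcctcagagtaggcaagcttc
CACCTG was found on either strand in 6 of the 9 rule enzymes with an entry (66.7%) and in 8 of 17 other digestive enzymes (47.1%). The share was 19.4% among all 27025 genes with a promoter entry, over the same length. TTTCCC was found in 5 of 9 rule enzymes (55.6%) and 3 of 17 other enzymes (17.6%), against 24.4% of all these genes. Both motifs occurred somewhere in the 250 bases, at any spacing, in 3 of 9 rule enzymes (33.3%) and 5.08% of all these genes. Whether they form a paired PTF1 site was not tested. Try5 was not among the promoter entries. A match is a run of letters and not evidence that a factor binds there.

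Acinar cells came from 3 of the 6 tumours. Treated 1 held 14 of 4111 filtered barcodes (0.341%, exact 95% binomial interval 0.186 to 0.571), treated 2 held 24 of 5412 (0.444%, 0.284 to 0.659) and treated 3 held 0 of 6385, which allows a share of up to 0.0470% at 3 counts of the total. Vehicle 1 held 0 of 2186 (up to 0.137%), vehicle 2 held 0 of 10415 (up to 0.0288%) and vehicle 3 held 158 of 11419 (1.38%, 1.18 to 1.62). A single vehicle tumour therefore gave 158 of the 196 cells, and each group had at least 1 tumour with none. The mean share was 0.261% ± 0.232 in treated mice and 0.461% ± 0.799 in vehicle mice (SD, n = 3 each). This difference of -0.200 percentage points was smaller than the spread between mice (two-sided exact permutation test, p = 1.0, where the smallest possible p is 0.1), and without vehicle 3 it turned to 0.261 (exact p = 0.6). For the 3 mice at 0, the exact 95% interval, as plotted, reaches 0.0578% in treated 3, 0.169% in vehicle 1 and 0.0354% in vehicle 2. Intervals and limits cover counting error only.

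**Figure D1:**
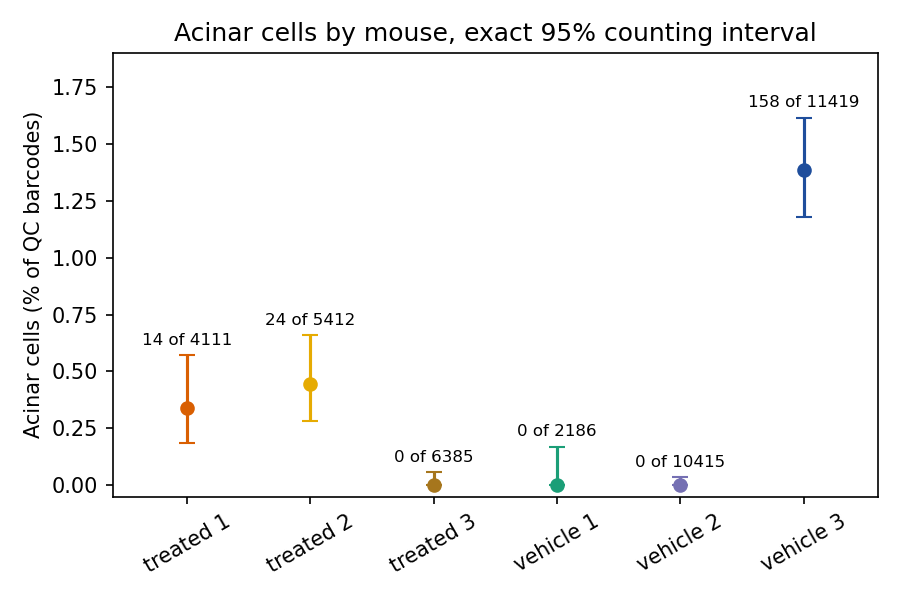
Acinar cells as a percentage of filtered barcodes in each mouse, treated mice left of vehicle mice, with points for the share and bars for the exact 95% binomial interval. Acinar cells are seen in treated 1 (14), treated 2 (24) and vehicle 3 (158), and in none of the barcodes of treated 3, vehicle 1 and vehicle 2.

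The 3 mice without acinar cells were far from the threshold. Among their barcodes that met the other conditions, the highest enzyme share was 0.303% in treated 3, 0.106% in vehicle 1 and 0.455% in vehicle 2. In the mice with acinar cells, the lowest share inside the threshold was 5.76% in treated 1, 5.11% in treated 2 and 5.08% in vehicle 3, and the highest share outside it was 3.48%, 3.74% and 4.97%. Between 2% and 5% lay 6 barcodes in treated 1, 2 in treated 2 and 50 in vehicle 3, beside 14, 24 and 158 acinar cells. In vehicle 3 the shares thus ran on across the threshold without a gap. A further 4, 13 and 16 barcodes of treated 1, treated 2 and vehicle 3 passed 5% enzymes but were removed for over 20% mitochondrial UMIs. Ptprc removed 1, 0 and 29 and Pecam1 removed 3, 0 and 6.

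Depth was uneven among the acinar cells. They held 224258 UMIs in treated 1, 275602 in treated 2 and 1362280 in vehicle 3. Per cell, UMIs spanned 562 to 74308 (median 4892) in treated 1, 816 to 55571 (median 5357) in treated 2 and 528 to 79973 (median 3040) in vehicle 3. The deepest cell alone held 33.1% of the acinar UMIs of treated 1, 20.2% in treated 2 and 5.87% in vehicle 3. Many acinar barcodes were thin: 6 of 14, 9 of 24 and 55 of 158 had under 500 genes. No barcode of an acinar cell recurred in another library, and any 2 libraries shared 0 to 24 barcodes. A doublet score left out 0 acinar cells of treated 1, 1 of treated 2 and 22 of vehicle 3.

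The acinar name was checked with genes that the rule did not use. Levels are given as CPM, the UMIs of a gene per 1000000 UMIs summed over all acinar cells of a mouse. The PTF1 subunit gene Ptf1a stood at 93.6 CPM in treated 1, 109 in treated 2 and 25.7 in vehicle 3, against 0.325, 0 and 0.2495 CPM in the other filtered barcodes of the same mice. Its partner Rbpjl was at 240.8, 185 and 102 CPM, against 1.12, 0.534 and 1.57 CPM in the other barcodes. Cckar, the cholecystokinin receptor, stood at 267.5, 308 and 136.5 CPM, against 2.33, 0.160 and 0.885 CPM. All of these genes were close to absent outside the acinar cells. Bhlha15 was sparse, with 3, 1 and 15 UMIs in treated 1, treated 2 and vehicle 3. Of the other 20 digestive enzymes in the feature list, 18 had a UMI in acinar cells. Among these, the colipase gene Clps was found in 13 of 14, 24 of 24 and 150 of 158 cells. The 4 markers Cpa1, Cela1, Ctrb1 and Pnlip were part of the rule. Ctrb1 was found in every acinar cell, while Pnlip, the pancreatic lipase, was found in 5 of 14, 19 of 24 and 81 of 158 cells.

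RNA of other cell types was present in some acinar barcodes. Of the 10 tumour or ductal markers, 1 was at 0 in treated 1, 2 in treated 2 and 0 in vehicle 3, with summed levels of 9824, 4579 and 4216 CPM. Gkn3 made up most of the treated sums, and without it the other 9 markers summed to 1851 CPM in treated 1 and 1753 CPM in treated 2, against 3745 CPM in vehicle 3, so that vehicle 3 was highest. The 6 neutrophil markers summed to 17.8 CPM in treated 1 and 10.9 CPM in treated 2, against 403 CPM in vehicle 3, where 54 of 158 cells held a UMI of them. S100a8 was at 0 in both treated mice. The 7 fibroblast markers summed to 44.6, 36.3 and 359 CPM and the 8 macrophage markers to 13.4, 443 and 163 CPM. The 5 red cell markers summed to 4.46, 3.63 and 868 CPM, with haemoglobin in 11 cells of vehicle 3. The 10 islet markers summed to at most 5.14 CPM in each mouse, and T or NK, B or plasma and dendritic markers to at most 3.67 CPM. Only 7, 10 and 46 cells had no UMI of Krt19, Tff1, Col1a1, Col3a1, Lyz2 or S100a8. What part these barcodes play in the differences below was not tested, except where values without them are given.

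Digestive enzymes made up a large part of the RNA of these cells in each tumour. The 10 rule enzymes held 15.3% of acinar UMIs in treated 1, 25.7% in treated 2 and 18.9% in vehicle 3, and all digestive enzymes held 18.3%, 31.2% and 22.9%. Since the rule selected on them, their levels are described without a test. Treated 2 stood highest and treated 1 lowest, with vehicle 3 between them.

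Among the proteases, the chymotrypsinogen gene Ctrb1 (chr8:111686519-111691010) was at 93200 CPM in treated 1, 125300 in treated 2 and 73240 in vehicle 3. Both treated mice were above vehicle 3 for this gene, and the same order held for Cela2a at 3304, 4565 and 1607 CPM. The trypsinogen Prss2 stood at 33980, 48050 and 50870 CPM, and Try5 at 12700, 41910 and 38160 CPM. Treated 1 was low for both trypsinogens, and it was lowest for Try4, with 259 CPM (exact 95% Poisson interval 196 to 334) against 7892 in treated 2 and 6832 in vehicle 3. Try4 (chr6:41302269-41305532) and Try5 (chr6:41311233-41316841) lie close together on mouse build mm10 among similar trypsinogen genes. Whether the assignment of reads among such genes affects these levels was not tested. Cpa1 and Cpb1, which trim amino acids from the carboxyl end of peptides, were at 4749, 9398 and 6197 CPM and at 2502, 9655 and 4167 CPM. Cela3b stood at 2082, 7250 and 6237 CPM and Cela1 at 424, 2123 and 1088 CPM. In these 4 genes the summed level was below vehicle 3 in treated 1 and above it in treated 2. In the median cell Cpa1 was above vehicle 3 in treated 1, at 71.1 against 66.4 UMIs per 10000. Cela3b was below vehicle 3 in the median cell of treated 2, at 48.4 against 51.2. Cpb1 and Cela1 kept the order of the sums.

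Outside the rule, Ctrl, a chymotrypsin-like protease gene, had 1195 CPM in treated 1 and 2482 CPM in treated 2, against 361 CPM in vehicle 3, log2 ratios of 1.70 and 2.75. Ctrc, which controls trypsin activation in humans, was at 713.5, 1172 and 431 CPM, and its annotated span overlaps that of Cela2a. Both genes were above vehicle 3 in both treated mice, and neither reached 4-fold in both. Clps was even across the 3 mice at 10740, 14400 and 12880 CPM, as was the bile salt lipase gene Cel at 3108, 3915 and 3413 CPM. Pnliprp1, a lipase-related gene, stood at 9618, 21190 and 12620 CPM. Pnlip was lowest in treated 1 at 75.8 CPM, against 896 CPM in treated 2 and 619 CPM in vehicle 3, and Pla2g1b, a secreted phospholipase gene, followed at 8.92, 149 and 201 CPM. The pancreatic amylase Amy2a5 was sparse in all 3 mice, with 5, 30 and 118 UMIs or 22.3, 109 and 86.6 CPM.

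**Figure D2:**
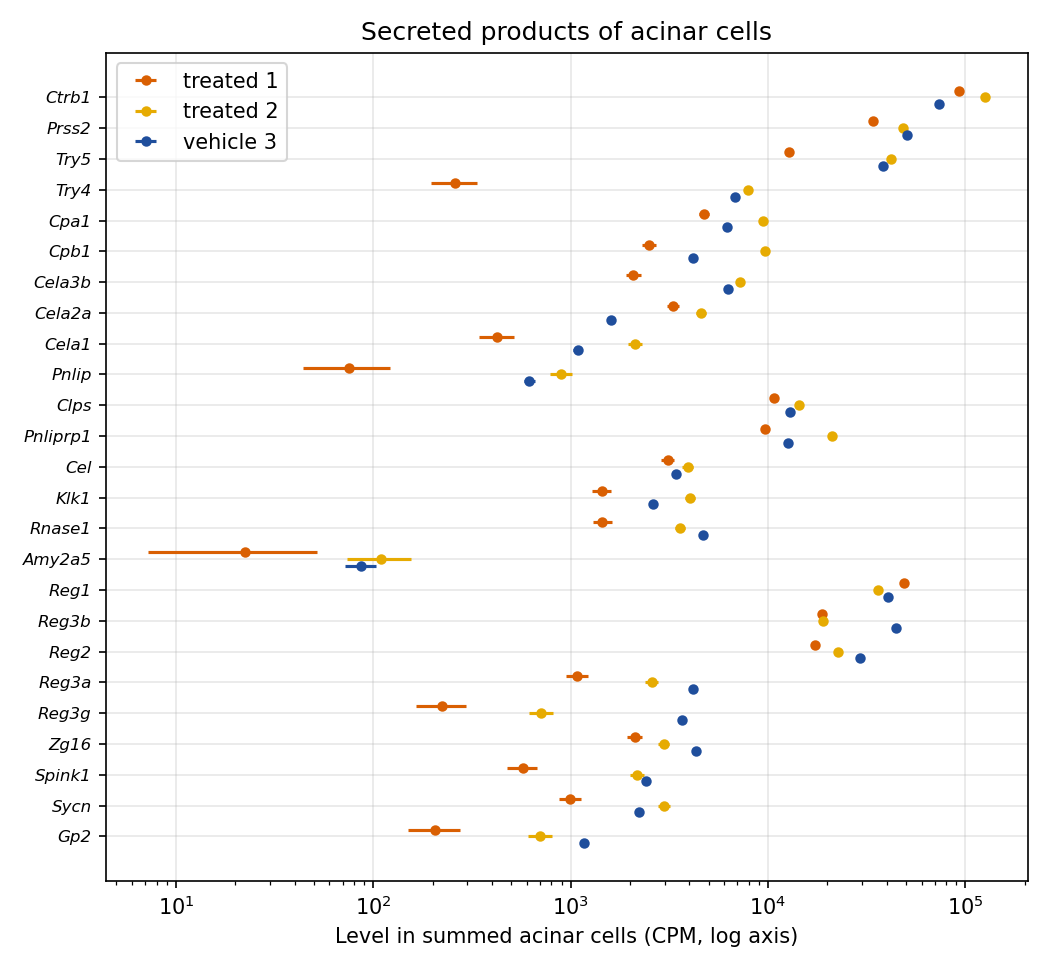
Levels of 25 secreted products in the summed acinar cells of treated 1, treated 2 and vehicle 3, as CPM on a log axis with exact 95% Poisson intervals, which cover counting error only. Treated 2 lies at or above vehicle 3 for most enzymes, treated 1 lies lowest for Try4 (259 CPM) and Pnlip (75.8 CPM), and Reg3g is lower in treated 1 and treated 2 than in vehicle 3.

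The Reg proteins are secreted lectin-like proteins that acinar cells make in large amounts when the pancreas is inflamed. The 6 genes measured here lie in 1 cluster on chromosome 6, between Reg3b (from 78370657) and Reg3g (to 78468872). Reg1 was similar in the 3 mice, at 48940 CPM in treated 1, 35970 in treated 2 and 40580 in vehicle 3. Reg2 was at 17230, 22720 and 29210 CPM. Reg3b stood at 18670 and 18910 CPM in the treated mice against 44340 CPM in vehicle 3, log2 ratios of -1.25 and -1.23. Reg3a, at 1079, 2580 and 4171 CPM, and Reg3d, at 272, 363 and 584 CPM, were also highest in vehicle 3. The gap was widest for Reg3g, described below. Reg1 alone had a ratio above vehicle 3, in treated 1.

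Other proteins of the zymogen granule were mostly highest in vehicle 3. Zg16, a granule lectin, was at 2109 CPM in treated 1, 2957 in treated 2 and 4313 in vehicle 3, and Gp2, the main membrane protein of the granule, at 205, 700.3 and 1169 CPM. Spink1, the inhibitor that guards against early trypsin activity, stood at 571, 2177 and 2403 CPM, so that treated 2 was near vehicle 3. Sycn, a protein of the inner granule membrane, was at 994, 2972 and 2212 CPM. Tff2, a mucosal repair peptide, stood at 963, 1089 and 1870 CPM.

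Acinar cells differed among themselves in how enzyme-rich they were. The enzyme share of a cell had a median of 17.9% in treated 1, 28.6% in treated 2 and 18.9% in vehicle 3, with maxima of 34.6%, 50.8% and 46.2%. At least 20% enzymes were held by 4 of 14, 16 of 24 and 76 of 158 cells, and at least 30% by 1, 11 and 31. Cells with more enzyme RNA also held more Reg RNA. Counted per 10000 UMIs outside the 10 enzymes, the 6 Reg genes averaged 531.7 in vehicle 3 cells with 5% to 10% enzymes, 1384 at 10% to 20%, 2518 at 20% to 30% and 3756 at 30% or more. The same bins gave 443, 592, 1654 and 2520 in treated 2, over 4, 4, 5 and 11 cells. Across cells, Spearman's rho between enzyme share and Reg was 0.886 in treated 1 (n = 14), 0.926 in treated 2 (n = 24) and 0.929 in vehicle 3 (n = 158). Cells of 1 mouse share a library and its free RNA, so these values describe the cells and have no p. The rule selected on enzyme share, and the part of barcodes with RNA of other cell types in these values was not tested. Enzyme share had a rho to UMIs per cell of -0.059, 0.216 and 0.119, and to genes per cell of -0.222, -0.123 and -0.300.

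The simple epithelial keratins ran the other way, with a rho to enzyme share of -0.618 in treated 1, -0.230 in treated 2 and -0.197 in vehicle 3. Krt8 and Krt18 together averaged 63.9, 26.1, 16.1 and 14.9 UMIs per 10000 non-enzyme UMIs over the bins of treated 1 (3, 7, 3 and 1 cells) and 11.4, 42.7, 15.6 and 11.0 over those of treated 2. They averaged 29.0, 33.0, 16.5 and 11.0 over the same bins of vehicle 3. Lcn2, which encodes an iron-siderophore binding protein of inflamed epithelium, followed the enzymes in vehicle 3, averaging 10.1, 26.1, 39.5 and 55.9 per 10000 over these bins. In treated 2 it averaged 0, 2.14, 5.10 and 4.92. At each enzyme level, mean Lcn2 was thus lower in treated 2 than in vehicle 3. In treated 1 it averaged 19.8, 0.464, 1.61 and 24.8 over 3, 7, 3 and 1 cells, so its lowest bin lay above that of vehicle 3.

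**Figure D3:**
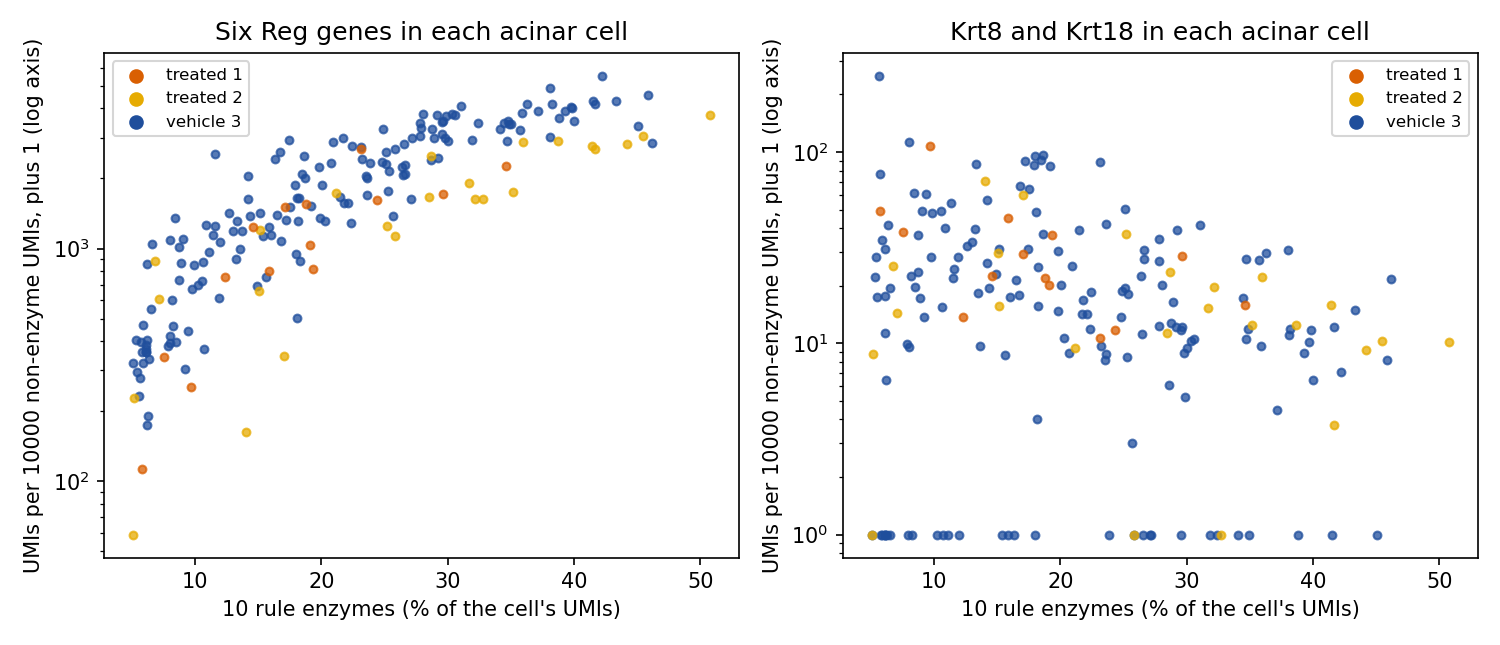
Each point is 1 acinar cell of treated 1, treated 2 or vehicle 3, with the share of its UMIs in the 10 rule enzymes against the summed UMIs of 6 Reg genes (left) or of Krt8 and Krt18 (right) per 10000 non-enzyme UMIs, plus 1, on a log axis. Reg levels climb with enzyme share in all 3 mice (rho 0.886, 0.926 and 0.929), and keratin levels scatter widely and decline, most in treated 1 (rho -0.618, -0.230 and -0.197).

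Genes of duct cells and of the acinar to ductal change were present in these enzyme-rich cells. Clu (clusterin), a secreted chaperone of injured epithelium, was found in 14 of 14, 20 of 24 and 146 of 158 cells and was at 18540 CPM in treated 1, 8657 in treated 2 and 11850 in vehicle 3. Other epithelial cells (filtered barcodes under 5% enzymes with 3 or more UMIs of Krt8, Krt18, Krt19 and Epcam and none of Ptprc or Pecam1) held 4815, 3579 and 2670 CPM of Clu. With each cell thinned to 500 UMIs, 92.9%, 62.5% and 82.3% of acinar cells still held a Clu UMI. The comparison was 300 macrophage-marker cells per library, which should lack Clu, with Ptprc and 3 or more UMIs of Lyz2 and C1q genes. Of these, 41.0%, 32.3% and 36.7% held Clu before thinning, at medians of 10490, 8308 and 3743 UMIs, and 5.67%, 4.00% and 9.33% thinned. Thinning these deeper cells also thins their free RNA, so the thinned share can understate free RNA in shallow acinar barcodes. Nupr1, a stress-induced nuclear protein, stood at 2319, 3342 and 6043 CPM, against 317, 252.5 and 341 CPM in the other filtered barcodes. Summed over cells, the ductal keratin Krt19 was close to its level in other epithelial cells, which were themselves selected on keratin UMIs. It was at 366, 308 and 407 CPM in acinar cells against 402, 251 and 596 CPM. The median acinar cell held 0.135, 0 and 0 Krt19 UMIs per 10000. In treated 1, 1 cell held 83 UMIs of Krt19 and Krt7 together, where all cells held 82 and 46. In treated 2, 1 cell held 73, where all held 85 and 41. Before thinning 7 of 14, 8 of 24 and 58 of 158 acinar cells held Krt19, against 5.67%, 4.67% and 12.3% of macrophage-marker cells. Thinned, 14.3%, 0% and 7.59% of acinar cells held it, against 0.667%, 0.333% and 2.67% of macrophage-marker cells. The 0 of 24 in treated 2 allow up to 14.2% (exact 95% binomial bound). Sox9, a ductal and progenitor factor, was at 245, 210.4 and 91.0 CPM. Spp1 (osteopontin) stood at 5141 CPM in treated 1, 1462 in treated 2 and 792 in vehicle 3, so treated 1 alone was over 4-fold above vehicle 3. A few cells carried it: 4 cells held 1146 of 1153 Spp1 UMIs in treated 1, 1 cell held 343 of 403 in treated 2, and 4 cells held 386 of 1079 in vehicle 3. In cells with 20% to 30% enzymes the direction turned, with means of 0.134 and 0.568 per 10000 non-enzyme UMIs in treated 1 and treated 2, against 4.59 in vehicle 3.

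The comparison of treated with vehicle acinar cells asked which genes differed 24 h after the drugs. Vehicle 3 was the only vehicle mouse with acinar cells, so no test across mice could be made, and treatment cannot be told apart from differences between mice. Among the genes lower in both treated mice, Reg3g and Lcn2 were found in the most acinar cells of vehicle 3 (147 and 129 of 158). A gene was counted when its log2 ratio over vehicle 3, with 10 CPM added to each value, was at least 2 in both treated mice or at most -2 in both, among 2962 genes with at least 50 acinar UMIs in all. By this 4-fold rule 1 gene (0.0338%) was higher and 39 (1.32%) were lower in both treated mice. The 50-UMI filter is uneven: 1307 genes reached 50 UMIs in vehicle 3 but not in the treated mice together, and 4 did the reverse, so few genes high in treated cells alone could be counted. Of the 39 lower genes, 36 had under 50 UMIs in the treated mice together. For 8 of the 39, a treated mouse at 0 UMIs bounds the difference under 4-fold when 3 UMIs are set in place of 0, which leaves 31. Both ratios share vehicle 3, so an odd value there moves them together. The libraries of treated 1 and treated 2 were more alike in other epithelial cells than any of the other 14 pairs, and whether they stand for 2 independent mice was not tested. Counts were 8 higher and 53 lower without treated 1, and 13 higher and 67 lower without treated 2. With a treated mouse left out the rule asks less of a gene, so larger counts follow from the rule itself.

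Lcn2 (chr2:32384633-32388252) was at 227 CPM in treated 1 (exact 95% Poisson interval 169 to 299) and 149 CPM in treated 2 (107 to 202), against 1985 CPM in vehicle 3 (1911 to 2061). It was 8.73-fold lower in treated 1 and 13.3-fold lower in treated 2. A UMI was found in 6 of 14 and 12 of 24 treated cells, against 129 of 158 vehicle cells. The median cell held 0 and 0.0900 Lcn2 UMIs per 10000 in treated 1 and treated 2, against 13.6 in vehicle 3, so the gap did not rest on a few deep cells. After thinning to 500 UMIs, 2 of 14 cells of treated 1 (14.3%, exact 95% binomial interval 1.78 to 42.8) and 0 of 24 cells of treated 2 (upper bound 14.2%) kept a UMI, against 79 of 158 cells of vehicle 3. The thinned share in macrophage-marker cells of the same libraries was 4.00% and 0.667%, against 5.67% in vehicle 3, and both treated intervals hold it. Before thinning that share was 7.67% and 3.33%, against 18.7% in vehicle 3. The thinned share can understate free RNA in shallow acinar barcodes. Among cells with at least 20% enzymes the log2 ratios were -2.09 and -2.86. Without cells holding markers of other types they were -1.48 and -3.37, so treated 1 no longer reached 4-fold.

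Reg3g (chr6:78466269-78468872), an antibacterial lectin, stood at 223 CPM in treated 1 (166 to 294) and 711 CPM in treated 2 (615 to 818), against 3673 CPM in vehicle 3 (3571 to 3776). It was 16.5-fold and 5.16-fold lower in the treated mice. The median cell held 1.07 and 5.65 UMIs per 10000 in treated 1 and treated 2, against 35.3 in vehicle 3. A UMI was seen in 9 of 14 and 17 of 24 treated cells, against 147 of 158 vehicle cells. Thinned, 14.3% and 12.5% of treated cells held a UMI, against 74.7% of vehicle cells, with 0%, 0% and 1.00% of macrophage-marker cells. Before thinning, 1.67%, 0.667% and 7.67% of macrophage-marker cells held a UMI. Reg3g passed the 4-fold rule among cells with at least 20% enzymes (log2 ratios -5.55 and -2.96) and without cells holding markers of other types (-3.83 and -2.07). It and the chemokine gene Cxcl2 were the 2 of the 39 lower genes that passed without those cells. Cxcl2 then rested on 55 UMIs, and with doublets left out its log2 ratios were -3.56 and -0.83, so it no longer passed. Reg3g and Lcn2 were the 2 that passed at 20% enzymes. Passing also needed the UMI filter, applied again to these fewer cells, and some genes failed on count alone. At 20% enzymes Cxcl2 had log2 ratios of -3.46 and -2.60 on 48 UMIs, and Ctla2a had -2.50 in both on 22 UMIs. Without cells holding markers of other types Ctla2a had -3.52 in both on 11 UMIs. Others fell short in size, such as S100a6 at 20% enzymes, with -4.56 and -1.50 on 115 UMIs.

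Inflammatory genes made up part of the lower group. Of 18 genes on the list of acute inflammation, 8 were measured. Of these, 4 were lower in both treated mice (Cxcl1, Cxcl2, Il1b and Lcn2) and 0 were higher, against 1.32% and 0.0338% of all measured genes. Cxcl1, Cxcl2 and Il1b had under 50 UMIs in the treated mice together and passed the filter only through vehicle 3. The filter thus tilts this count towards lower genes. Cxcl1, a neutrophil attractant, had 0 UMIs in both treated mice against 110 UMIs in 34 cells of vehicle 3, at least 6.04-fold lower in treated 1 and 7.42-fold lower in treated 2 against a floor of 3 UMIs per library. Cxcl2 had 1 and 19 UMIs against 542, and Il1b had 1 and 1 against 193. The neutrophil marker genes S100a8 and S100a9 were lower as well, with 0 and 0 UMIs of S100a8 against 127 and 1 and 2 UMIs of S100a9 against 243. Neutrophils are known to make Il1b and Cxcl2, and the part of neutrophil RNA in these values was not tested. Other members of the list were closer to vehicle 3 or above it. The NF-kB inhibitor gene Nfkbia was at 152 and 102 CPM against 161.5 CPM, and Socs3, a cytokine feedback inhibitor, at 290 and 68.9 CPM against 41.1 CPM.

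Several of the 39 lower genes rested on few cells. Gkn1, a gastric mucosal protein gene, had 1 and 0 UMIs in treated 1 and treated 2, against 812 UMIs in 6 cells of vehicle 3. Tff1 had 2 and 0 UMIs against 1287 in 17 cells, Gkn2 had 0 and 2 against 282 in 2 cells, and Wfdc18 had 0 and 0 against 225 in 7 cells. The haemoglobin gene Hbb-bs had 1 and 1 UMIs against 890 in 7 cells, and Hba-a1 had 0 and 0 against 145 in 3 cells. In all, 19 of the 39 were found in at most 20 cells of vehicle 3, 16 had no UMI in either treated mouse, and 9 stood on a marker list of another cell type. At least 25% of vehicle 3 cells (40 cells) held a UMI for 9 of the 39: Lcn2, Reg3g, S100a6, Crip1, Fn1, Cxcl2, Ctla2a, Srgn and Col3a1, named after their values were seen.

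Ctla2a, a cathepsin inhibitor-like gene, had 0 UMIs in both treated mice against 888 UMIs in 49 cells of vehicle 3, at least 48.7-fold and 59.9-fold lower. S100a6, a calcium-binding protein gene of ductal and stromal cells, stood at 183 and 120 CPM against 2183 CPM in vehicle 3. Both genes were also uneven between mice outside the acinar cells. In other epithelial cells Ctla2a was at 56.5, 28.4 and 178.7 CPM in treated 1, 2 and 3, against 2.18, 1981 and 3808 CPM in vehicle 1, 2 and 3, so the groups overlapped. S100a6 there stood at 5649, 5756 and 6072 CPM in treated mice, against 13030, 15200 and 8522 CPM in vehicle mice. Its groups did not overlap, and the share of all genes for which that holds was not counted.

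Gkn3, a gastrokine gene on the list of tumour or ductal markers, was the 1 gene higher in both treated mice. It was at 7973 CPM in treated 1 (7608 to 8351) and 2827 CPM in treated 2 (2632 to 3032), against 471 CPM in vehicle 3 (435.5 to 509). A UMI was found in 9 of 14 and 8 of 24 treated cells, against 79 of 158 vehicle cells, so the share of cells did not follow the level. A few cells carried it: 1 cell held 655 of 779 UMIs in treated 2. In treated 1, cells with 916, 348, 324 and 142 UMIs held most of the 1788. No cell of vehicle 3 held more than 106 of its 642. The median cell held 6.44 and 0 Gkn3 UMIs per 10000 in treated 1 and treated 2, against 0.0662 in vehicle 3. Summed acinar cells held 46.3-fold, 38.4-fold and 17.4-fold the Gkn3 CPM of the other filtered barcodes in treated 1, treated 2 and vehicle 3. In other epithelial cells Gkn3 stood at 207, 96.3 and 1175 CPM in treated 1, 2 and 3. It stood there at 4.28, 104 and 31.0 CPM in vehicle 1, 2 and 3, so the groups overlapped. Treated 3, without acinar cells, thus held more Gkn3 in these cells than vehicle 3 held in its acinar cells. Among cells with at least 20% enzymes the log2 ratios were 0.40 and -2.89, and without cells holding markers of other types 0.77 and -3.72. The higher level was thus not seen in cells rich in enzymes or free of other markers, and in treated 2 the direction turned in both.

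**Figure D4:**
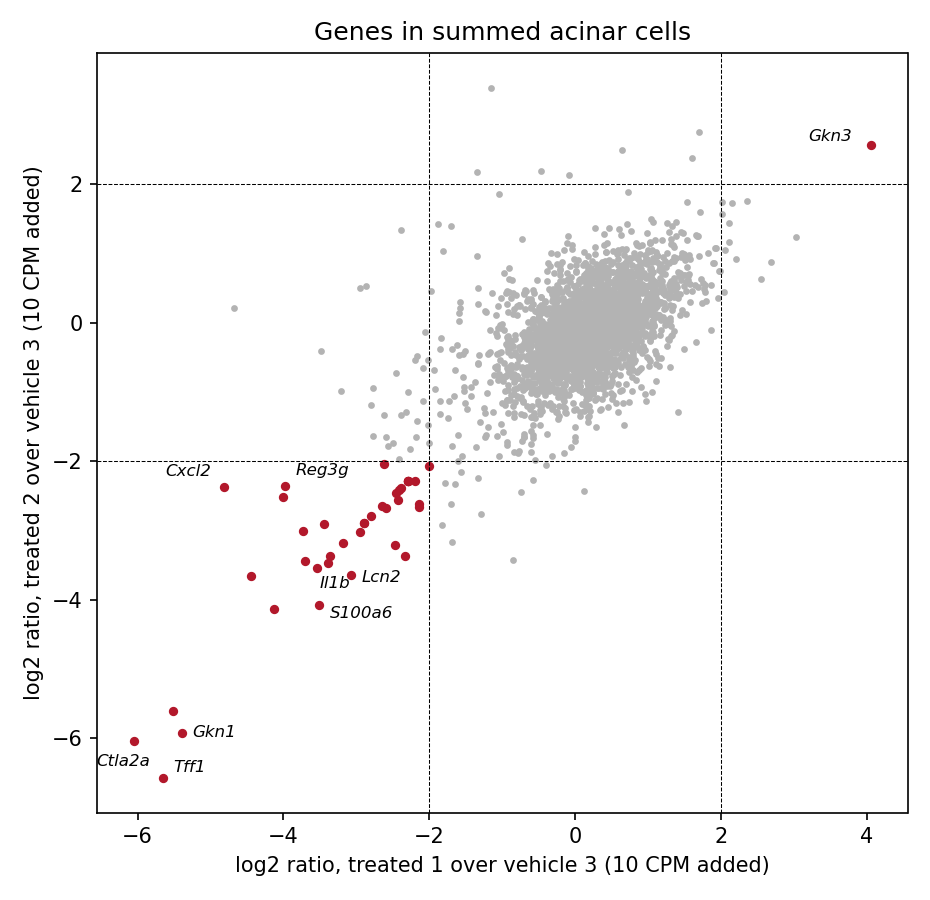
Log2 ratios of 2962 genes in summed acinar cells, treated 1 over vehicle 3 on the horizontal axis and treated 2 over vehicle 3 on the vertical axis, with 10 CPM added; dashed lines mark 4-fold and red points passed it in both. Gkn3 (4.05 and 2.56) stands alone at the upper right, and 39 genes, Lcn2 and Reg3g among them, stand at the lower left; both axes share vehicle 3.

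Gene lists were described by their counts and medians beside those of all measured genes, whose median log2 ratio was 0.20 in treated 1 and -0.09 in treated 2. The rule enzymes had medians of -1.04 and 0.56 and the other digestive enzymes -0.86 and 0.50, so the direction of the enzymes turned between the treated mice and 0 of 23 measured enzymes passed the 4-fold rule. Granule and protective proteins had medians of -1.05 and -0.45, with 1 of 14 lower (Reg3g). The inflammation list had medians of -2.44 and -1.49 over 8 measured genes of 18. Of these, Cxcl1, Cxcl2 and Il1b passed the UMI filter only through vehicle 3, which tilts the medians downward. Cholesterol synthesis stood at -0.58 and -0.92, with 4 measured genes of 24.

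Summed over cells, which weights deep cells, transcription factors of acinar identity lay mostly above vehicle 3. The 8 measured of 12 had medians of 1.09 and 0.79, and 0 passed 4-fold in both mice. Ptf1a had log2 ratios of 1.54 and 1.74, Nr5a2 had 1.26 and 1.44, Rbpjl had 1.16 and 0.80 and Xbp1 had 1.39 and 0.52. Their counts were small, with 21, 30 and 35 UMIs of Ptf1a and 30, 42 and 68 of Nr5a2 in treated 1, treated 2 and vehicle 3. These UMIs came from 6, 10 and 27 cells for Ptf1a and from 5, 5 and 39 cells for Nr5a2. Averaged per cell, the order of the mice varied by enzyme bin. Ptf1a, Rbpjl, Nr5a2 and Bhlha15 together averaged 3.14, 4.06, 4.83 and 0 UMIs per 10000 non-enzyme UMIs over the bins of treated 1. Over the same bins they averaged 5.39, 5.68, 2.96 and 3.80 in treated 2, and 3.47, 4.79, 4.07 and 2.66 in vehicle 3. Rbpj, the ubiquitous relative of Rbpjl, was the 1 measured factor below vehicle 3 in both treated mice, at 17.8 and 29.0 CPM against 64.6 CPM.

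The machinery of protein secretion showed no gene past 4-fold in both mice. Endoplasmic reticulum chaperone and stress genes (22 measured) had medians of 0.80 in treated 1 and 0.09 in treated 2, and translocation and traffic genes (23 measured) 0.44 and 0.04. The chaperone Hspa5 (BiP) was at 495 and 330 CPM against 293 CPM in vehicle 3. Sel1l, of the degradation complex of the endoplasmic reticulum, stood at 361 and 203 CPM against 123 CPM. Pdia2, a disulfide isomerase of the pancreas, was at 80.3 and 156 CPM against 84.4 CPM. Treated 1 was the higher treated mouse for Hspa5 and Sel1l, and treated 2 for Pdia2.

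The pathways that the drugs act on were thinly covered. MAPK output genes (13 measured of 27) had medians of 0.96 and 0.31, with 0 past 4-fold in both mice. Dusp6, an ERK phosphatase induced by ERK, stood at 53.5 and 54.4 CPM against 22.8 CPM in vehicle 3, on 12, 15 and 31 UMIs. Fos was at 1021 and 932.5 CPM against 386 CPM. Myc, at 13.4 and 7.26 CPM against 49.9 CPM, and Dusp5, at 8.92 and 14.5 CPM against 41.1 CPM, stood below vehicle 3. Members of the list thus pointed both ways. Lysosome genes (19 measured of 36) had medians of 0.18 and 0.17, with the protease gene Ctsl at 1414 and 1473 CPM against 888 CPM. Autophagy genes (9 measured of 34) had medians of 0.36 and -0.25, and the autophagy receptor gene Sqstm1 stood at 80.3 and 43.5 CPM against 73.4 CPM. Mitochondrially encoded genes had medians of 0.57 and 0.21 and ribosomal protein genes -0.09 and -0.46.

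**Figure D5:**
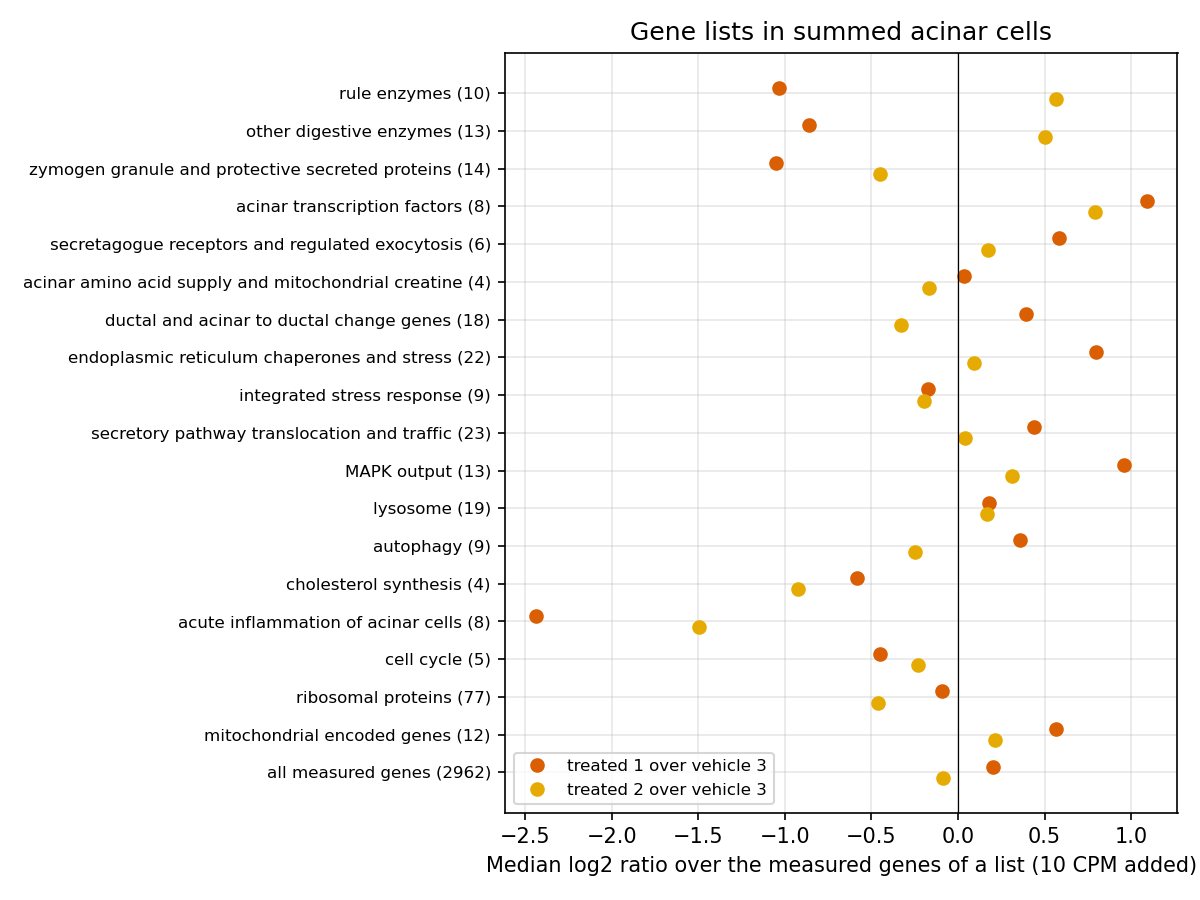
Median log2 ratio over the measured genes of each list (number measured in brackets), treated 1 over vehicle 3 and treated 2 over vehicle 3, with 10 CPM added; the bottom row gives all 2962 measured genes. Inflammation genes lie lowest (-2.44 and -1.49), acinar transcription factors lie highest (1.09 and 0.79), and the enzyme lists lie on opposite sides of 0 in the treated mice. The inflammation medians are tilted downward, since some of these genes passed the UMI filter only through vehicle 3.

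Other epithelial cells of the same tumours, which were present in all 6 mice, give a side view of the genes that stood out. Lcn2 there was at 203.5 CPM in treated 1, 104 in treated 2 and 1144 in treated 3, against 25.02, 295 and 275 CPM in vehicle 1, 2 and 3, so the groups overlapped. Reg3g stood at 24.5, 8.96 and 53.6 CPM, against 1.38, 215.5 and 8.94 CPM, and the groups overlapped again. The acinar level of Reg3g was 10.8-fold that of the other filtered barcodes in treated 1, 102-fold in treated 2 and 176-fold in vehicle 3. That of Lcn2 was 1.15-fold in treated 1, 1.70-fold in treated 2 and 6.77-fold in vehicle 3. Whether the acinar and epithelial differences differ was not tested. Treated 1 and treated 2 were near each other in other epithelial cells, with an SD of log2 ratios of 0.192 over the 2962 genes, against 0.517 to 0.893 for the other 14 pairs of mice. The labels give them as separate mice, and whether the tissue or libraries were shared was not tested. In acinar cells the SD was 0.648 between treated 1 and treated 2, 0.790 for treated 1 over vehicle 3 and 0.717 for treated 2 over vehicle 3. The predicted gene Gm42418 was at 25190 and 43170 CPM in acinar cells of treated 1 and treated 2, against 8264 CPM in vehicle 3. In other epithelial cells it was at 23630, 35040 and 14920 CPM in treated 1, 2 and 3, against 206, 3135 and 3089 CPM in vehicle 1, 2 and 3. The groups did not overlap for this gene, but the share of all genes for which that holds was not counted.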

How the data were processed

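The authors deposited unnormalized UMI counts, 1 matrix per mouse. Cell Ranger 5.0.1 and build mm10 are named in the submitters' processing notes, without the annotation's release. Gene identifiers were looked up in GENCODE M21 for coordinates on mm10. Library totals ran from 22996012 to 126645602 UMIs.

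Counts of acinar cells were summed per mouse and scaled to CPM, with exact Poisson intervals at 95%. For shares, all regroupings of the mice were enumerated (exact permutation test, two-sided). A gene test with edgeR was planned for at least 2 mice per group with at least 20 acinar cells each. Only treated 2 and vehicle 3 had that many, so it was not run. Genes were named by size instead: 4-fold in both treated mice, at least 50 UMIs, the 10 largest per direction and the listed genes that passed. This size rule replaced the planned one after the cell numbers were known. The members, markers and 18 gene lists were chosen with earlier results of these data known. Doublets were scored with scrublet (scanpy 1.11.5), leaving out the highest 0.8% per 1000 barcodes. Nothing in the labels says that the mice were paired. Python 3.11.15, numpy 2.4.6, pandas 2.3.3, scipy 1.17.1 and matplotlib 3.10.9 were used. Promoters came from RefSeq (GRCm38.p6).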

Additional observations from a re-analysis of the deposited data

How the results depend on the processing

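The share difference kept its sign under 12 of 13 alternatives and ranged from -0.431 to 0.261 percentage points over mice left out in turn. Without vehicle 3 it was 0.261 (exact p = 0.6). No alternative for the share can pass 0.05 in this design. Of the gene counts (1 higher and 39 lower), 4 were higher with no filter on low counts, 2 with doublets left out, 3 with the deepest cell of each mouse left out and 0 with a mean of CPM per cell. At 10% enzymes 18 were lower and at 20% enzymes 7 were lower. Without cells holding markers of other types 0 were higher and 9 lower, and at 8-fold 0 were higher and 14 lower. With each cell thinned to 500 UMIs 45 were higher and 687 lower, since 1 UMI is then worth more than the 10 CPM added. Leaving out a treated mouse gave 8 to 13 higher and 53 to 67 lower, under a rule that then needs only the other treated mouse to pass. Leaving enzymes out of the scale moved 2 of 16 list medians beyond the spread between the treated mice and gave 1 gene higher and 40 lower. Setting treated mice at 0 to 3 UMIs left 31 lower. The deepest-cell, mean-CPM, 1000-UMI, 8-fold and 3-UMI alternatives were chosen after seeing the data. DESeq2, other size factors, a minimum of 10 cells and the test against other epithelial cells gave no value, since 1 vehicle mouse held acinar cells; without it no gene value remains. No paired analysis was possible because only 1 vehicle mouse held acinar cells, so the groups share no 2 replicate numbers with data. Of the 39 lower genes, 30 passed without the deepest cells and 29 without doublets.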
